A study of Mus musculus with 30 samples.

Results

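The 47 genes described here encode the machinery that copies DNA in S phase and the recombination enzymes that mend broken forks. They were chosen by symbol as a list of DNA replication and recombination genes, and all 47 were present in both deposited tables, among 13353 genes in bone marrow (BM) and 17059 genes in adipose tissue macrophages (ATMs). By role they fall into 10 groups: the MCM2-7 helicase, origin licensing, helicase activation, the sliding clamp with its loader, polymerases with primase, the single-strand binding RPA complex, Okazaki fragment maturation, nucleotide supply, recombination and repair, and a pair of genes for the fork checkpoint and chromatin (*Clspn* and *Uhrf1*). All 47 had enough counts in both tissues to be tested.

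RNA was sequenced from whole BM and from F4/80+ cells sorted from visceral fat, with 3 libraries in each of 5 groups per tissue, 30 in all. Every recipient mouse was lethally irradiated (700 and 400 cGy) and, according to the protocol, received CD45.2+ BM of *Shp2*E76K/+;LysM-Cre+ donors together with an equal number of Boy/J CD45.1+ competitor cells. LysM-Cre switches on the gain-of-function SHP2 phosphatase in myeloid cells, and the competitor cells do not carry it. WT recipients formed one group, with no treatment in their labels. The other groups were leptin-deficient *Ob/Ob* recipients, treated from 8 weeks after transplantation for 30 days with vehicle (Vehicle), the GLP-1 receptor agonist beinaglutide at 3 mg/kg (GLP1RA), an anti–IL-17A antibody at 200 µg per mouse 3 times a week (Anti-IL-17A) or both agents (Combo). Mice of both sexes were used, aged 12 to 14 weeks in the labels. The study's methods give recipients an age at irradiation, and treatment began 8 weeks after transplantation, so the age at sampling remains uncertain. The labels name no donor for single samples, so the donor cells of the WT ATM libraries remain uncertain. In Vehicle vs WT, obesity, leptin deficiency, vehicle injections and, in ATMs, the donor genotype cannot be told apart.

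As background, a cell licenses its origins in G1, when the origin recognition complex with CDC6 and CDT1 loads the ring of MCM2-7 on DNA. In S phase CDC45 and the GINS complex turn that ring into a moving helicase, primase with polymerase α starts each strand, and polymerases δ and ε extend it on the PCNA clamp. Many of these genes are transcribed together by E2F factors when RB releases them, so their mRNAs are used as a readout of cycling cells. Most tissue macrophages divide rarely, whereas BM holds many cycling precursors.

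Promoter sequences from RefSeq (GRCm38.p6), covering 250 bases before and 50 bases after each start, were at hand for 39 of the 47 members. The letters TTTCCCGC or TTTGGCGC, which are forms of the E2F site, were searched on both strands. A match to either was found in 13 of the 39 members (33.3%) and in 486 of 27025 genes with an entry (1.8%). TTTCCCGC was in 20.5% of the members and 1.24% of all genes, and TTTGGCGC in 15.4% and 0.585%. These shares describe the letters in the windows and say nothing of binding. Shown here are the stretches just before the RefSeq start that lie in no annotated exon for *Mcm5* (TTTGGCGC read on the other strand), *Cdc6* (TTTCCCGC read on the other strand) and, as a member without a match, *Mcm2*, with the matched letters in capitals. They lie at chr8:75109259-75109508 on the plus strand, chr11:98907982-98908150 on the plus strand and chr6:88898781-88899030 on the minus strand. The *Cdc6* stretch lies in the first intron of a longer annotated transcript.
Mcm5: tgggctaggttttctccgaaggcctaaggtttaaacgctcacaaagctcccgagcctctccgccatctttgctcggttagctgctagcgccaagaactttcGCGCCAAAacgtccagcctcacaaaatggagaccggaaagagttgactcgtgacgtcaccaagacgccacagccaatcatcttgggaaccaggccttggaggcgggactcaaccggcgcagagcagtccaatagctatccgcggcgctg
Cdc6: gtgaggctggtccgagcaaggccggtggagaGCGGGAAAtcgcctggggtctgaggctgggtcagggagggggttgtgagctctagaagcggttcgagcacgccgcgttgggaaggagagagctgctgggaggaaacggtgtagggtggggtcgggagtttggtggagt
Mcm2: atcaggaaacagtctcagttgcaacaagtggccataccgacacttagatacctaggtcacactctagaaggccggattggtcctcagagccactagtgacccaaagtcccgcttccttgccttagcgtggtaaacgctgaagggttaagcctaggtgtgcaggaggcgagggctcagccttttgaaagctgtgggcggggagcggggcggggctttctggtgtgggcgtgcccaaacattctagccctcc

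Libraries held 31086184 to 39925495 counts in BM and 24876074 to 45300263 in ATMs, of which the members took 0.488% to 0.75% in BM and 0.0714% to 0.236% in ATMs. Values are given in CPM, which are counts scaled to the library size after TMM correction. Groups were compared per tissue with edgeR's quasi-likelihood test, with all 15 libraries in the model and Benjamini-Hochberg adjustment over every gene. The biological coefficient of variation was 3.51% in BM and 32.5% in ATMs, so far smaller changes passed the test in BM. In BM, WT replicate 1 stood apart from the other WT libraries (chi-square per degree of freedom over genes up to 34.8, where pairs of the treated and Vehicle groups reached at most 4.21), so WT comparisons are also given without it. In ATMs, the Vehicle libraries differed most on the members (median SD 0.365 on the log2 scale, against 0.14 in Combo). All 10 macrophage markers were found in every ATM group, which does not show how pure the sorted cells were. Their sum was below that of fibroblast and mesothelial markers in every ATM group but Anti-IL-17A. In Vehicle ATMs it was 3073 to 3331 CPM, against 18025 to 19234 for mature neutrophil markers. In WT it was 4316 to 4577 CPM in ATMs and 13207 to 13483 in whole BM, although the 2 tables were scaled separately. However, granulocyte, T cell, erythroid, endothelial, adipocyte, fibroblast, pancreatic and epididymal genes also differed between the ATM groups, and their levels are given beside the results. The protocol names 3 mice per group, and no other label ties a library to 1 mouse. If libraries were pooled or split from 1 preparation, the p-values measure technical spread.

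As a whole, the members were lowest in Vehicle and moved apart by treatment differently in the 2 tissues. For each library, the median over the 47 members of the log2 difference from the WT mean was taken. In ATMs this median was -0.498 to -0.326 in Vehicle, 0.0113 to 0.193 in GLP1RA, 0.711 to 0.818 in Anti-IL-17A and 1.18 to 1.26 in Combo, around -0.0122 to 0.0255 in WT itself. No 2 of the 4 *Ob/Ob* groups overlapped. In BM the same median was -0.113 to -0.0626 in Vehicle, 0.272 to 0.307 in GLP1RA, 0.0967 to 0.132 in Anti-IL-17A and 0.126 to 0.146 in Combo. Anti-IL-17A and Combo overlapped there, while Vehicle was the lowest and GLP1RA the highest group.

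**Figure D1:**
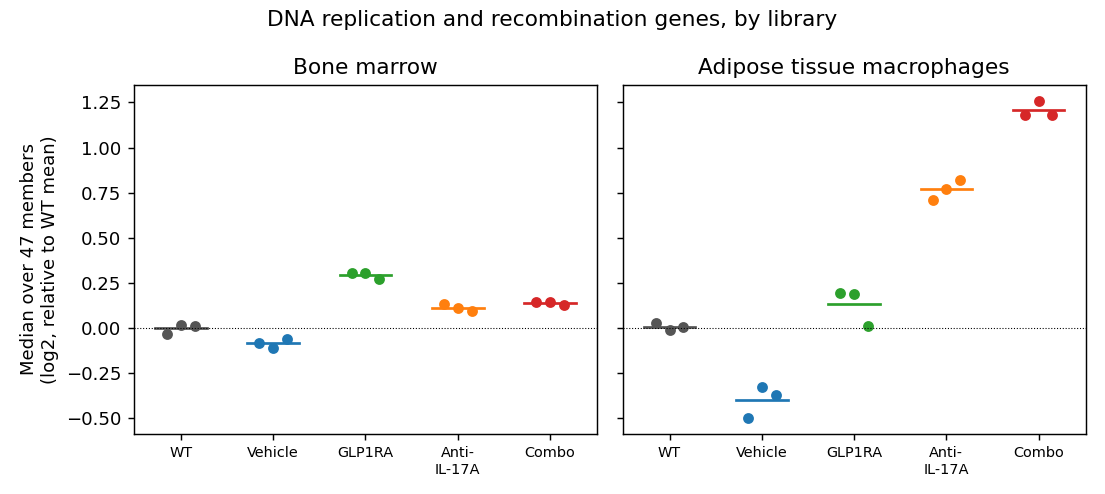
Median over the 47 members of the log2 difference from the WT mean (y axis) in each library (points) of the 5 groups (x axis), with BM on the left, ATMs on the right and a bar at each group mean. The ATM Combo libraries lie between 1.18 and 1.26, above all others, whereas in BM the GLP1RA libraries are highest at 0.272 to 0.307.

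The first question was whether the members differed between ATMs of obese, vehicle-treated recipients and those of WT recipients. A member was called where it passed a 5% false discovery rate (FDR) and changed by more than 1 on the log2 scale, the limits used in the study. In Vehicle vs WT, 12 members were lower and 1 was higher, where 22.9% of all genes were called lower and 12.5% higher, so the share of lower calls was near that of all genes. Fitted with the WT and Vehicle libraries alone, 7 were lower and 1 higher. The median log2 fold change was -0.31 for the members and -0.21 over all genes tested. The 12 lower members included *Pole*, *Pola1*, *Prim1* and *Pold1* for polymerases and primase, *Rrm1* and *Rrm2* for nucleotide supply, and *Mcm4*, *Orc1*, *Rfc1*, *Rpa2*, *Exo1* and *Uhrf1*. In bulk RNA, fewer cells of a type and less RNA per cell cannot be told apart.

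*Pole*, the catalytic subunit of the leading-strand polymerase ε, had 3.88, 6.05 and 4.07 CPM in WT and 0, 0.398 and 0.451 CPM in Vehicle, from at most 10 counts per Vehicle library. Its groups did not overlap, with a log2 fold change of -4.06 (SE 0.63, adjusted p = 4.86e-05, edgeR). *Pola1*, the catalytic subunit of polymerase α, fell from 24.6, 22.8 and 23.3 CPM in WT to 3.42, 1.46 and 5.68 CPM in Vehicle, a log2 fold change of -2.74 (SE 0.34, adjusted p = 5.42e-06, edgeR). By contrast *Pola2*, its accessory subunit, was the single member called higher, with 24.5, 17.4 and 23.6 CPM in WT and 85, 64.1 and 69.3 CPM in Vehicle, a log2 fold change of 1.74 (SE 0.17, adjusted p = 2.46e-07, edgeR). Thus the subunits of the same polymerase moved in opposite directions.

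*Uhrf1*, which keeps DNA methylation in place behind the fork, had 12.9, 17 and 13.3 CPM in WT and 6.8, 5.75 and 2.8 CPM in Vehicle, a log2 fold change of -1.49 (SE 0.24, adjusted p = 7.56e-05, edgeR). *Rrm2*, the S-phase subunit of ribonucleotide reductase, fell by 1.08 on the log2 scale (SE 0.18, adjusted p = 7.95e-05, edgeR), and by 0.93 when Vehicle replicate 1 was left out, which is under the fold limit. *Rpa2* fell by 1.03, by 0.83 without Vehicle replicate 2 and by 0.92 without WT replicate 2. The call of *Exo1*, a nuclease of DNA end resection, rested on 0, 0.442 and 0.226 CPM in Vehicle (log2 fold change -3.17, adjusted p = 0.0375, edgeR), and was lost without Vehicle replicate 1 (adjusted p = 0.0935, edgeR), without Vehicle replicate 3 (adjusted p = 0.0773, edgeR) or without WT replicate 3 (adjusted p = 0.157, edgeR).

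Other members stood higher in Vehicle without reaching the fold limit. *Pcna*, the sliding clamp, had 71.7, 72 and 73.8 CPM in WT and 117, 128 and 131 CPM in Vehicle (log2 fold change 0.79, SE 0.07). *Cdt1*, a loading factor for MCM2-7, had a log2 fold change of 0.89 (SE 0.16) and *Fen1*, the flap nuclease of Okazaki fragments, one of 0.87 (SE 0.16). For *Fen1*, 84.2% of the exon length is shared with other annotated genes, and reads there were counted for each gene. *Mcm2*, by comparison, had overlapping values in WT (26.1, 23.4 and 27.1 CPM) and Vehicle (24.9, 28.3 and 31.6 CPM).

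Next, the treated groups were compared with Vehicle. All these comparisons share the 3 Vehicle libraries, so a low or high Vehicle value enters each of them. With the GLP-1 receptor agonist alone, 12 members were called higher and 1 lower in ATMs, where 20.8% of all genes were called higher and 10.9% lower. The median log2 fold change was 0.43, against 0.19 over all genes. Among them were *Brca1*, *Brca2* and *Exo1*, which each lost the call when at least 3 of the 6 libraries were left out singly. *Pole* was higher by a log2 fold change of 4.60 (SE 0.63), with 3.39, 9.14 and 7.89 CPM in GLP1RA, and *Uhrf1* by 1.69 (SE 0.24), with 19, 14.7 and 15.8 CPM. *Pola2* was the member called lower, at -1.50 (SE 0.16). *Mcm2* (0.21, SE 0.13, adjusted p = 0.194, edgeR), *Cdc6* (-0.38, SE 0.28, adjusted p = 0.264, edgeR) and *Tk1* (0.73, SE 0.38, adjusted p = 0.113, edgeR) did not pass the test.

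With the anti–IL-17A antibody alone, 27 members were called higher and 1 lower, where 22.4% of all genes were called higher and 13.1% lower. The median was 1.23, against 0.17 over all genes. *Mcm5*, a subunit of the helicase ring, had 20.9, 27.4 and 20.4 CPM in Vehicle and 78.6, 75 and 73.3 CPM in Anti-IL-17A, so that the groups lay far apart, with a log2 fold change of 1.72 (SE 0.11, adjusted p = 1.5e-09, edgeR). *Tk1*, the thymidine kinase of the salvage pathway, rose from 3.06, 10.8 and 3.43 CPM to 34.3, 29.5 and 29.3 CPM (log2 fold change 2.43, SE 0.38). *Pola1* rose by 2.05 (SE 0.34), to 13.9, 15.2 and 14.7 CPM, which is below the WT libraries. *Pola2* was again lower (-1.37, SE 0.16), and *Cdc6*, the licensing ATPase, had values of 10.3, 8.72 and 9.63 CPM beside 8.9, 10.2 and 10.2 CPM in Vehicle (-0.03, SE 0.27, adjusted p = 0.932, edgeR).

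With both agents, 34 of the 47 members were called higher in ATMs and 0 lower (by DESeq2 also 34 and 0; by edgeR at an unadjusted p under 0.05, 39 and 1, the latter *Pola2*), where 14.1% of all genes were called higher and 12.2% lower. The median log2 fold change was 1.73, against 0 over all genes. In 40 members all 3 Combo libraries exceeded all 3 Vehicle libraries, and in 24 they exceeded all 12 other ATM libraries. How many of all genes separated in this way, or had an unadjusted p under 0.05 in any comparison, was not counted. Member counts of either kind, here and below, therefore cannot be set against a share. All 6 members of the MCM2-7 ring, all 3 of RPA, all 4 of nucleotide supply and all 5 of recombination and repair were called higher. Of the polymerases and primase it was 6 of 9, of helicase activation 3 of 6, of the clamp and its loader 3 of 6 and of origin licensing 2 of 4.

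*Mcm5* reached 114, 124 and 121 CPM in Combo, a log2 fold change of 2.38 over Vehicle (SE 0.11, adjusted p = 3.91e-11, edgeR). *Mcm2* reached 87.9, 95.4 and 97.5 CPM, a log2 fold change of 1.73 (SE 0.13, adjusted p = 2.14e-08, edgeR). Among the activators, *Cdc45* rose from 2.82, 2.92 and 3.74 CPM to 25.1, 17.2 and 18.3 CPM (log2 fold change 2.67, SE 0.29). Each of these helicase genes was higher in all Combo libraries than in any other ATM library.

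Over the 4 nucleotide supply genes the median was 2.68 on the log2 scale. *Rrm2* had 6.56, 8.54 and 10.8 CPM in Vehicle and 98.6, 96.8 and 86.9 CPM in Combo, 10.9-fold higher (log2 fold change 3.45, SE 0.18, adjusted p = 2.81e-10, edgeR). *Rrm1*, the large subunit of the same enzyme, rose from 26, 21.1 and 26.1 CPM to 158, 128 and 155 CPM (log2 fold change 2.59, SE 0.13). *Tk1* reached 41.2, 34.3 and 41.5 CPM (log2 fold change 2.76, SE 0.39). *Uhrf1* rose to 68.2, 63.2 and 72.7 CPM, 13.2-fold above Vehicle (log2 fold change 3.73, SE 0.25, adjusted p = 5.14e-09, edgeR).

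The rise of *Pole* (log2 fold change 5.54, SE 0.64) and *Exo1* (4.72, SE 1.28) started from the few Vehicle counts named above, and both sizes are correspondingly uncertain. *Pole* had 16.2, 12.4 and 10.5 CPM in Combo and *Exo1* 5.31, 6.18 and 6.14 CPM. Of the homologous recombination genes, *Rad54l*, a motor protein for strand exchange, had 0.362, 3.45 and 1.76 CPM in Vehicle and 13.8, 14.9 and 9.26 CPM in Combo (log2 fold change 2.77, SE 0.64, adjusted p = 0.00205, edgeR). *Brca1*, needed for end resection, had 0.0805, 1.02 and 3.65 CPM in Vehicle and 7.24, 4.52 and 9.8 CPM in Combo (log2 fold change 2.19, SE 0.75, adjusted p = 0.0258, edgeR), and *Brca2*, a gene of homologous recombination, a log2 fold change of 2.44 (SE 0.85, adjusted p = 0.0273, edgeR). Fitted with the Combo and Vehicle libraries alone, neither passed (adjusted p = 0.0914 for *Brca1* and 0.107 for *Brca2*, edgeR). *Brca1* also did not pass without Vehicle replicate 2 (adjusted p = 0.0772, edgeR) or Combo replicate 3 (adjusted p = 0.0785, edgeR), nor *Brca2* without Vehicle replicate 2 (adjusted p = 0.0763, edgeR), Combo replicate 1 (adjusted p = 0.0512, edgeR) or Combo replicate 3 (adjusted p = 0.0743, edgeR).

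Some members were not called with both agents. *Pcna* had 135, 142 and 132 CPM in Combo, close to Vehicle (log2 fold change 0.12, SE 0.06, adjusted p = 0.145, edgeR). *Cdt1* had a log2 fold change of 0.06 (SE 0.16, adjusted p = 0.836, edgeR) and *Fen1* one of 0.33 (SE 0.15, adjusted p = 0.0905, edgeR). All 3 stood higher in Vehicle than in WT. *Clspn*, the mediator of the fork checkpoint, had 0.0403, 2.08 and 0 CPM in Vehicle and 4.19, 2.04 and 4.6 CPM in Combo, and the groups overlapped (log2 fold change 2.35, SE 1.18, adjusted p = 0.117, edgeR). Vehicle replicate 2 decided this value, as the log2 fold change was 7.19 without it (adjusted p = 0.00018, edgeR) and 1.77 to 2.63 without any other library.

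**Figure D2:**
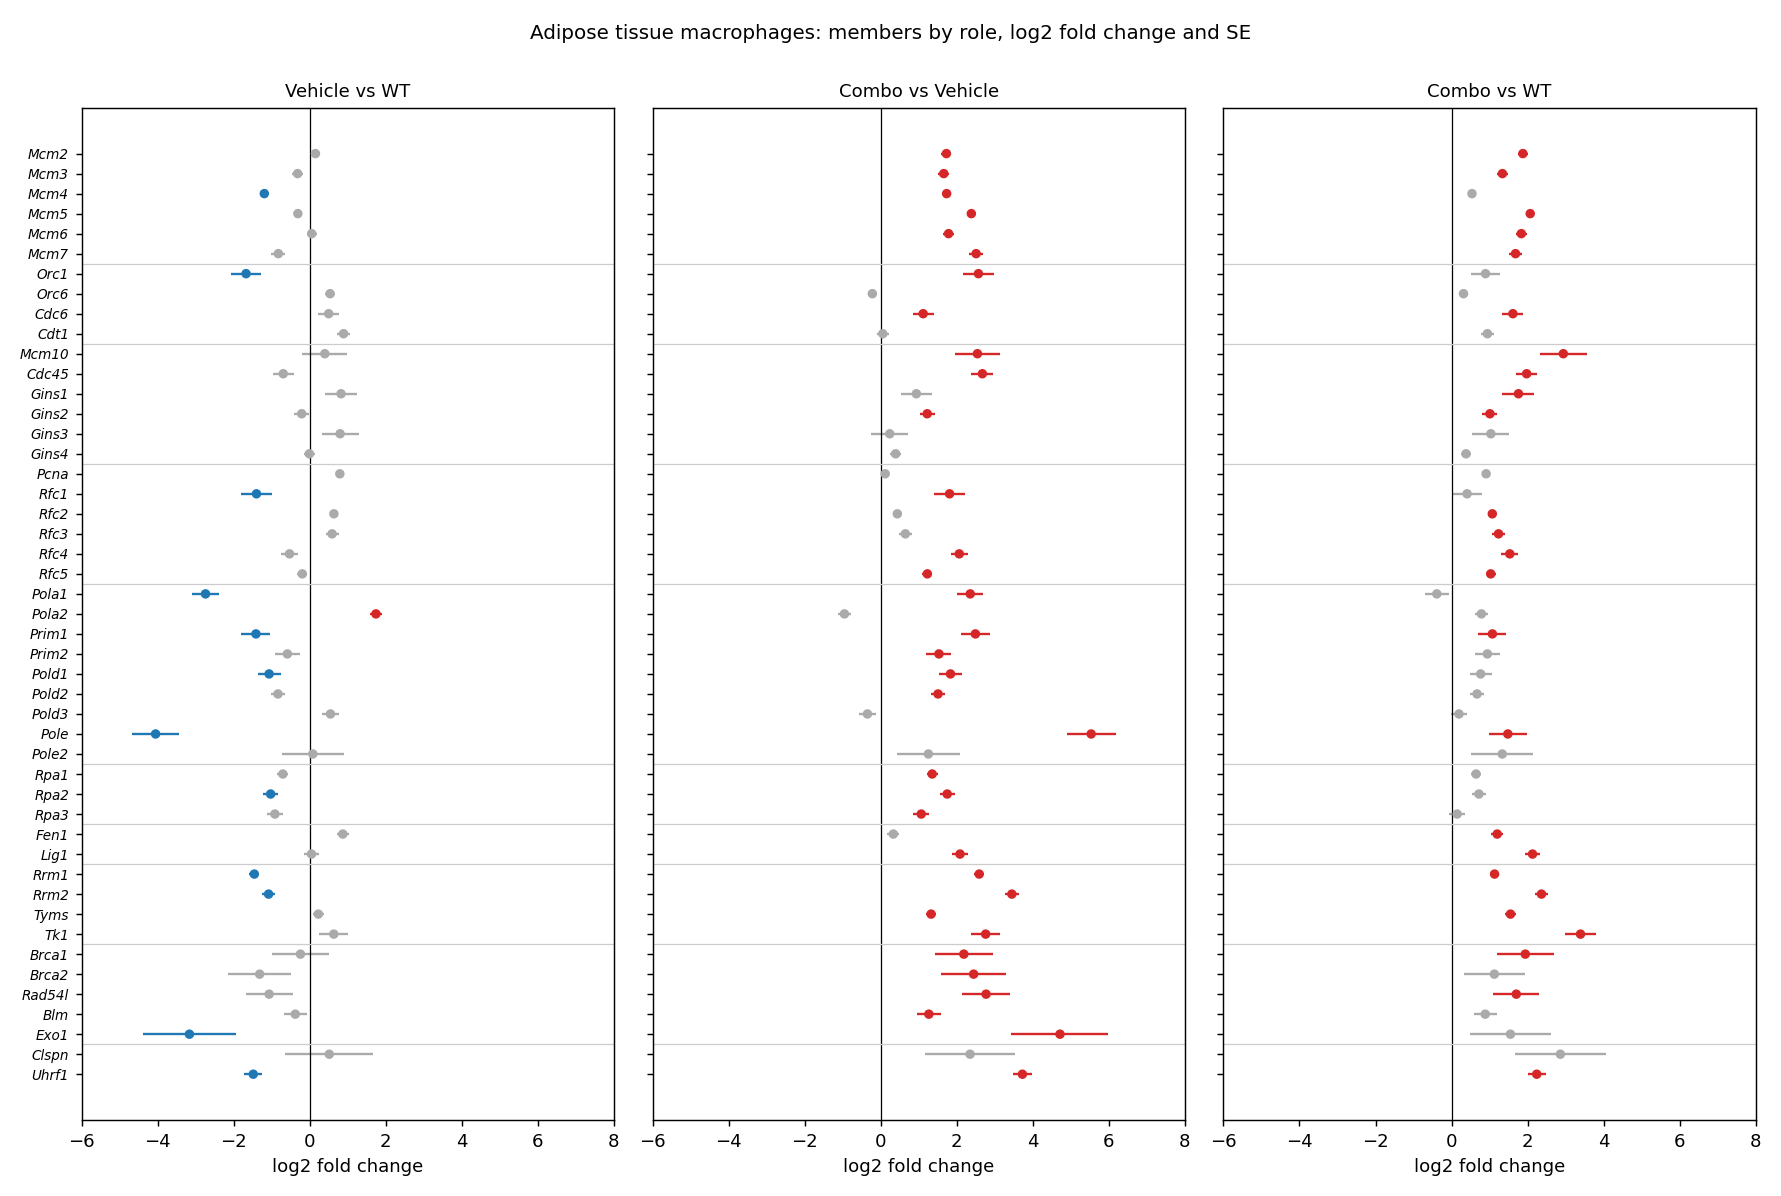
Log2 fold change (x axis, point) and standard error (line) of each of the 47 members in ATMs, ordered by role with lines between roles, for Vehicle vs WT, Combo vs Vehicle and Combo vs WT. Red marks members called higher, blue members called lower and grey the others: 12 are blue in Vehicle vs WT, and 34 and 25 are red in Combo vs Vehicle and Combo vs WT.

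Measured against WT instead of Vehicle, ATMs of the Combo group still had 25 members called higher and 0 lower (26 and 0 by DESeq2; by edgeR 39 and 0 at an unadjusted p under 0.05), where 7.08% of all genes were called higher and 14.5% lower. The median was 1.13, while it was -0.12 over all genes. *Tk1* had 4.34, 2.22 and 4.6 CPM in WT and was 10.5-fold higher in Combo (log2 fold change 3.39, SE 0.40, adjusted p = 4.77e-06, edgeR). *Mcm10*, which helps start the helicase, had 1.69, 1.33 and 1.15 CPM in WT and 10.6, 12.5 and 8.83 CPM in Combo (log2 fold change 2.94, SE 0.61, adjusted p = 0.00114, edgeR). *Rrm2* (2.36, SE 0.17), *Mcm5* (2.07, SE 0.11) and *Mcm2* (1.88, SE 0.13) followed. *Cdc6* had 4.63, 9.19 and 6.96 CPM in WT and 22.2, 17.9 and 23.5 CPM in Combo (log2 fold change 1.61, SE 0.28). Not every member exceeded WT: *Pola1* had 15.6, 17.9 and 20.6 CPM in Combo, below each WT library (log2 fold change -0.39, SE 0.31, adjusted p = 0.352, edgeR). The calls of *Brca1* (adjusted p = 0.0481, edgeR), *Rad54l* (adjusted p = 0.0353, edgeR) and *Pole* (adjusted p = 0.0262, edgeR) were lost when single libraries were left out. For *Brca1* these were each WT library and Combo replicates 1 and 3 (adjusted p 0.085 to 0.134, edgeR), for *Rad54l* WT replicates 2 and 3 and Combo replicates 1 and 2 (0.0661 to 0.127), and for *Pole* WT replicates 1 and 3 and Combo replicates 1 and 2 (0.0502 to 0.0919).

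**Figure D3:**
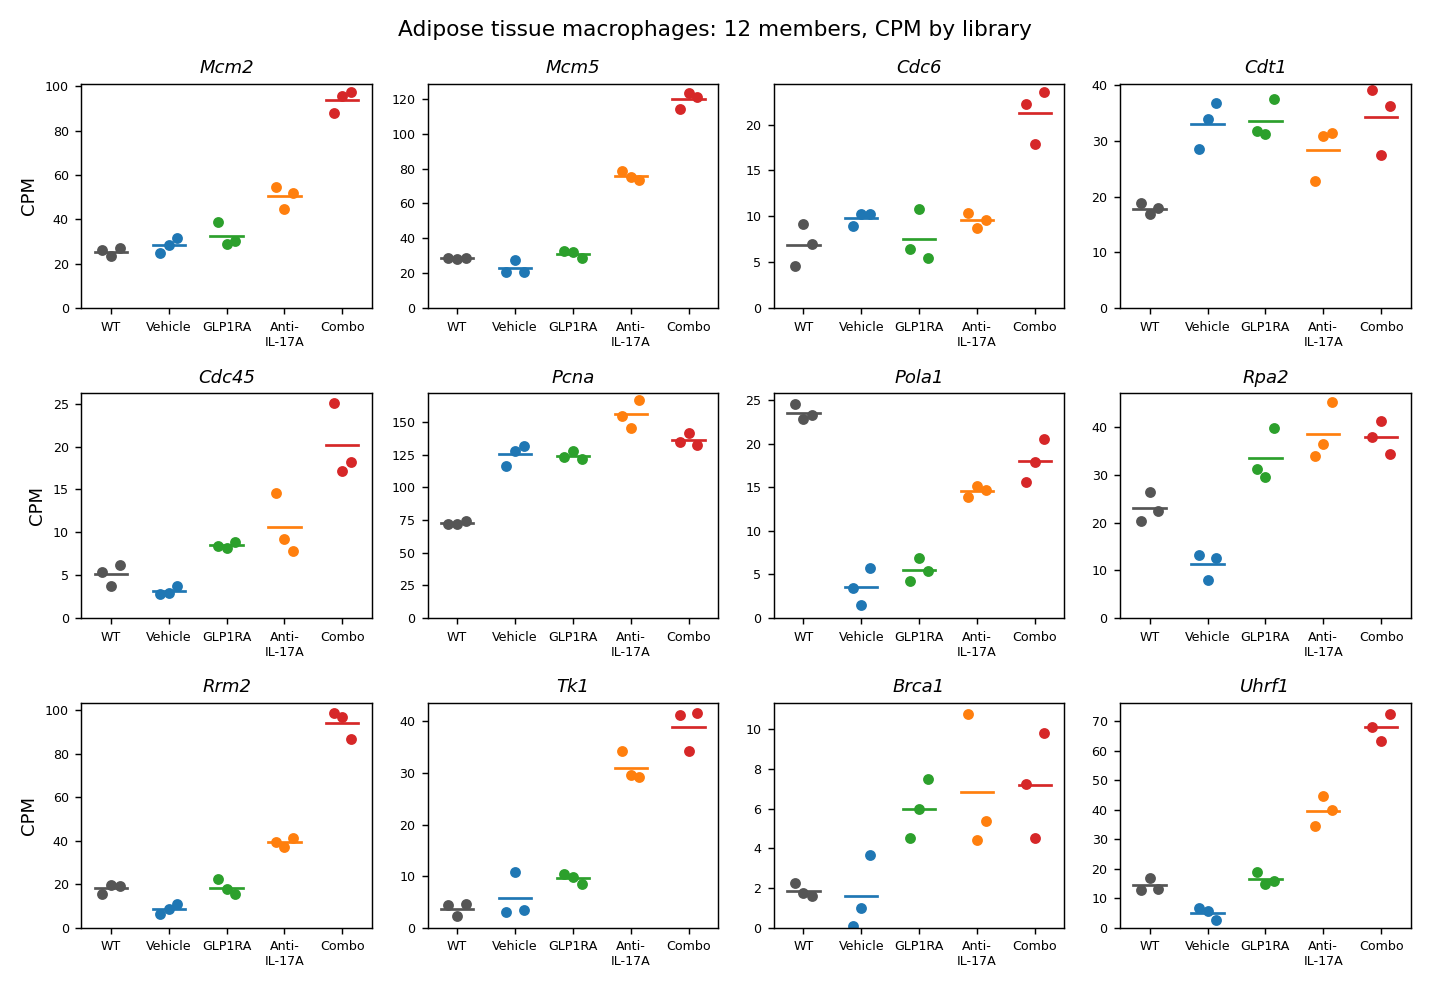
CPM (y axis, linear and starting at 0) of 12 members in each ATM library (points) of the 5 groups (x axis), with a bar at each group mean. *Mcm2*, *Mcm5*, *Rrm2* and *Uhrf1* stand highest in all 3 Combo libraries, with Anti-IL-17A next, whereas *Pcna* and *Cdt1* are lowest in WT and *Pola1* is highest in WT.

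The combination was then set against each agent alone. Over GLP1RA, all 47 log2 fold changes in Combo were above 0, with 25 called higher and 0 lower (37 and 0 at an unadjusted p under 0.05, edgeR), where 5.38% of all genes were called higher and 13.4% lower, and a median of 1.15 against -0.09 over all genes. *Rad54l* (2.61, SE 0.63), *Rrm2* (2.35, SE 0.17) and *Mcm5* (1.94, SE 0.11) were among them. Over Anti-IL-17A, 3 members were called higher, *Cdc6* (1.15, SE 0.27, adjusted p = 0.00469, edgeR), *Lig1* (1.03, SE 0.19, adjusted p = 0.000827, edgeR) and *Rrm2* (1.26, SE 0.17, adjusted p = 2.97e-05, edgeR), and 0 lower (23 higher and 1 lower at an unadjusted p under 0.05, edgeR), where 3.73% of all genes were called higher and 10.5% lower. The median there was 0.48, against -0.03. *Lig1*, the ligase that seals Okazaki fragments, had 24.8, 32.9 and 30.7 CPM in Anti-IL-17A and 54.4, 64.9 and 60.7 CPM in Combo, without overlap.

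A further contrast asked whether the log2 change with Combo differed from the 2 single-agent changes added together. In ATMs 4 members were called above the sum and 2 below it, where 12.9% of all genes were called above and 23% below. Both shares of the members were under those of all genes. *Cdc6* was above (1.53, SE 0.39, adjusted p = 0.00383, edgeR), with a change that passed the test for both agents and for neither alone. *Pola2* (1.91, SE 0.23), *Tyms* (1.54, SE 0.19) and *Rfc3* (1.06, SE 0.24) were also above. *Pole* (-4.42, SE 0.79) and *Rpa2* (-1.60, SE 0.27) were below. *Rpa2* had 31.3, 29.5 and 39.9 CPM in GLP1RA, 34, 36.5 and 45.2 CPM in Anti-IL-17A and 38, 41.2 and 34.3 CPM in Combo, and these groups overlapped. The median was 0.12 for the members and -0.21 over all genes.

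Other cell cycle genes were read from lists that share no gene with the members. In Combo vs Vehicle in ATMs, 18 of 20 mitosis genes (median 3.39) and 15 of 27 other recombination genes (median 1.54) were called higher. Of 30 other replication genes 13 were higher and 1 lower (median 0.85), and of 30 genes of the E2F and RB pathway 10 were higher and 2 lower (median 0.69). Over all genes, 14.1% were called higher and 12.2% lower there, with a median of 0. The 20 mitosis genes summed to 171 to 176 CPM in WT, 158 to 182 in Vehicle, 244 to 249 in GLP1RA, 441 to 480 in Anti-IL-17A and 834 to 874 in Combo. The 47 members summed to 920 to 951, 863 to 900, 1009 to 1094, 1527 to 1555 and 2116 to 2160 CPM in the same order. Both sums were highest in Combo and second in Anti-IL-17A. The sums of the other lists had other orders. Other replication genes summed to 711 to 728 CPM in Combo and came second in Vehicle, at 624 to 655, above 585 to 612 in Anti-IL-17A. The E2F and RB list was highest in Vehicle, at 2942 to 3079 CPM, against 1819 to 1863 in Combo and 1526 to 1635 in Anti-IL-17A. Other recombination genes were highest in Combo (312 to 323 CPM) and lowest in Vehicle (164 to 183).

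Genes of other cell types changed across the same ATM groups. T cell markers (9 of 10 listed were in the table) summed to 334 to 371 CPM in WT, 146 to 160 in Vehicle, 606 to 643 in GLP1RA, 681 to 701 in Anti-IL-17A and 1152 to 1183 in Combo. Immature granulocyte markers (10 of 10), genes of granulocyte precursors, summed to 4754 to 4895 CPM in Vehicle and 5777 to 5862 in Combo, and to at most 175 in the other groups. Mature neutrophil markers (9 of 10) summed to 18025 to 19234 CPM in Vehicle and 8002 to 8236 in Combo, against at most 511 elsewhere. The T cell sum had the same order of groups as the sum of the members. The immature granulocyte sum was highest in Combo, where the members were highest, and next in Vehicle, where the members were lowest. The mature neutrophil sum was highest in Vehicle and next in Combo.

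Macrophage markers (10 of 10) summed to 4316 to 4577 CPM in WT, 3073 to 3331 in Vehicle, 10447 to 10880 in GLP1RA, 15046 to 15272 in Anti-IL-17A and 11022 to 11083 in Combo. Erythroid markers (8 of 10) summed to 6818 to 6906 CPM in Vehicle and 5669 to 5794 in Combo, against 3965 to 4193 in WT and at most 1659 with either single agent. Endothelial markers (10 of 10) summed to 4432 to 4551 CPM in Vehicle and at most 1127 elsewhere, and adipocyte markers (10 of 10) to 4146 to 4424 CPM in Vehicle and at most 1393 elsewhere. Thus the erythroid, endothelial and adipocyte sums stood highest in Vehicle, where the sum of the 47 was lowest. The macrophage sum, in contrast, was lowest in Vehicle. Fibroblast and mesothelial markers (10 of 10) summed to 5397 to 5754 CPM in Vehicle and at least 12273 in each other group. Pancreatic acinar markers (9 of 10) summed to 1147 to 1154 CPM in Combo and at most 27.6 elsewhere, with 5 at 0 in all Vehicle libraries. Epididymal markers (7 of 10) reached 3021 to 3159 CPM in WT and at most 0.586 in Vehicle and 0.417 in Combo, with 6 of the 7 at 0 in both. The part of these cells in the members' values was not tested.

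**Figure D4:**
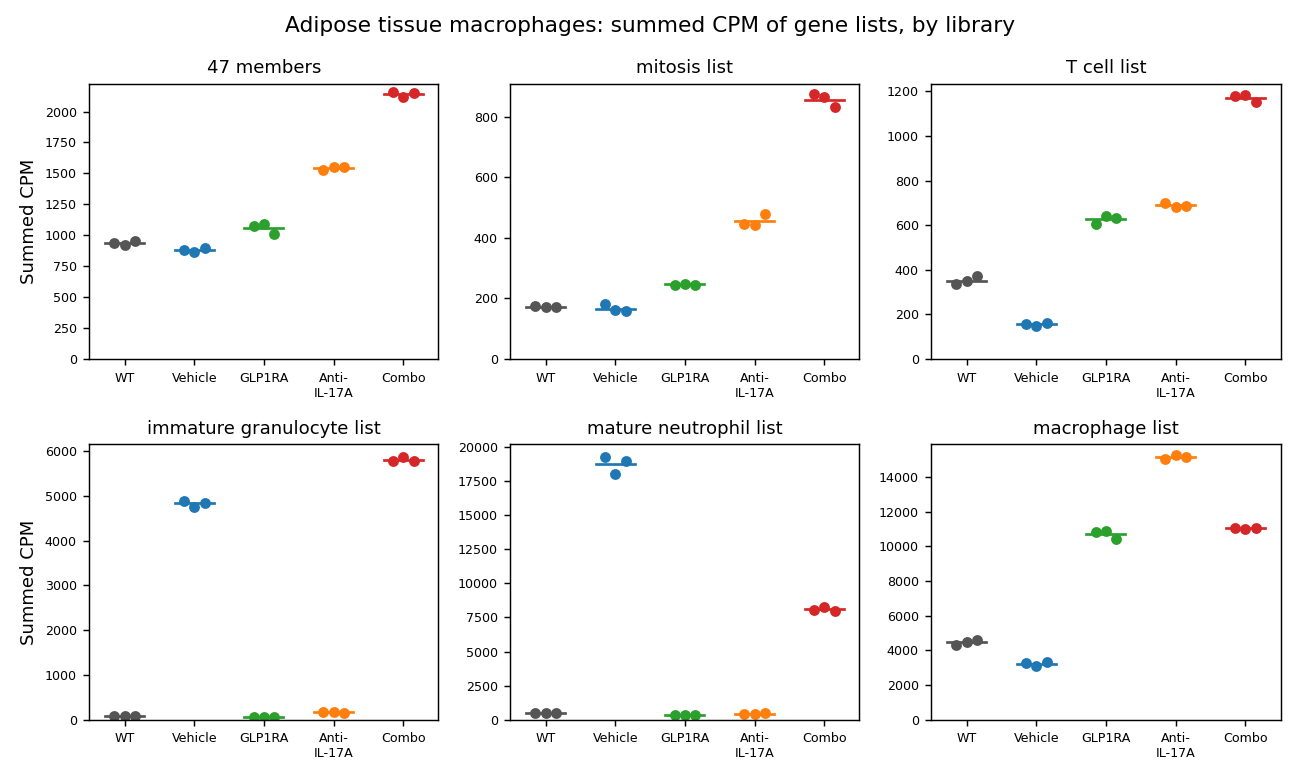
Summed CPM (y axis, linear and starting at 0) of the 47 members, the mitosis list and 4 lists of cell type markers in each ATM library (points), by group (x axis), with a bar at each group mean. The members, mitosis genes and T cell markers are highest in Combo, while the granulocyte and neutrophil lists are high in both Vehicle and Combo.

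In BM, the members changed by less and in a different order of groups. In Vehicle vs WT, 0 members passed the fold limit by edgeR or DESeq2 (32 at an unadjusted p under 0.05 by edgeR, whatever the fold), where 19.5% of all genes did in either direction. The 19.5% holds for the fold limit, and no share of all genes was counted at an unadjusted p, here or in the BM comparisons below. At the 5% FDR alone, 8 were higher and 24 lower, where 37.8% of all genes were higher and 38.8% lower. The median log2 fold change was -0.10 for the members and -0.02 over all genes. Without WT replicate 1, 9 were higher and 27 lower, with a median of -0.13.

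*Pcna* had 516, 510 and 529 CPM in WT and 359, 367 and 359 CPM in Vehicle, a log2 fold change of -0.52 (SE 0.02, adjusted p = 2.48e-22, edgeR). *Rpa3*, the smallest RPA subunit, had 55.4, 51.8 and 57.4 CPM in WT and 31, 29.8 and 32 CPM in Vehicle, a log2 fold change of -0.83 (SE 0.06, adjusted p = 1.09e-16, edgeR). *Cdt1* was higher, with 67.3, 72.1 and 72.5 CPM in WT and 120, 127 and 128 CPM in Vehicle (log2 fold change 0.82, SE 0.04, adjusted p = 2.87e-23, edgeR). None of these groups overlapped. *Mcm2* (0.03, SE 0.03), *Cdc6* (0.04, SE 0.04), *Rrm2* (0.01, SE 0.02) and *Fen1* (0.00, SE 0.03) did not pass the test.

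With the GLP-1 receptor agonist, 37 of the 47 members were higher and 5 lower at the 5% FDR in BM, where 36.5% of all genes were higher and 36.3% lower. The median was 0.35, against 0.01 over all genes, and in 20 members the 3 GLP1RA libraries exceeded all 12 other BM libraries. Such separation was not counted over all genes, so the 20 cannot be set against a share. *Orc1*, the large subunit of the origin recognition complex, was the single member past the fold limit, which 16.7% of all genes passed in either direction. It had 18.9, 18.3 and 20.9 CPM in Vehicle and 39.6, 39.9 and 39.4 CPM in GLP1RA (log2 fold change 1.03, SE 0.06, adjusted p = 1.2e-19, edgeR), and 0.99 without Vehicle replicate 2. *Clspn* rose from 65.6, 71.4 and 73 CPM to 128, 124 and 123 CPM (0.83, SE 0.04), and *Cdc6* from 76.8, 80.1 and 77.6 CPM to 124, 125 and 132 CPM (0.70, SE 0.04). *Rrm1* rose by 0.63 (SE 0.02), *Uhrf1* by 0.63 (SE 0.02) and *Tk1* by 0.58 (SE 0.03).

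All members of the MCM2-7 ring, origin licensing, RPA, Okazaki fragment maturation and nucleotide supply were higher in GLP1RA BM at the 5% FDR. The 5 lower members were *Rfc2* (-0.55), *Gins2* (-0.26), *Cdc45* (-0.18), *Rad54l* (-0.17) and *Rfc5* (-0.12). *Gins2* shares 67.3% of its exon bases with *Gse1*. *Rfc2*, *Gins2* and *Rfc5* were named after their values were seen.

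The antibody alone gave 30 members higher and 7 lower in BM at the 5% FDR, where 36.4% of all genes were higher and 36.6% lower, and a median of 0.19 against 0.01. The combination gave 30 higher and 6 lower, where 37.9% were higher and 35.8% lower, and a median of 0.18 against 0.02. By edgeR and by DESeq2, 0 members passed the fold limit in either comparison (38 and 36 at an unadjusted p under 0.05 by edgeR, whatever the fold), which 16.1% and 17.7% of all genes did. *Mcm4*, a subunit of the ring, had 148, 145 and 141 CPM in Vehicle, 209, 208 and 212 CPM in Anti-IL-17A and 224, 220 and 217 CPM in Combo, log2 fold changes of 0.54 (SE 0.03) and 0.61 (SE 0.03). *Uhrf1* had log2 fold changes of 0.53 (SE 0.02) and 0.58 (SE 0.03), and *Pola1* of 0.55 (SE 0.04) and 0.67 (SE 0.04). All 6 members of the ring were higher in both comparisons. *Cdt1*, in contrast, was lower in both (-0.27, SE 0.03, and -0.20, SE 0.03), although it was higher with the GLP-1 receptor agonist (0.35, SE 0.03).

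Compared with WT, BM of the Combo group had 25 members higher and 13 lower at the 5% FDR, where 36.1% of all genes were higher and 37.2% lower, with a median of 0.17 against -0.02. Without WT replicate 1 it was 26 higher and 14 lower, with a median of 0.14. By edgeR and by DESeq2, 0 members passed the fold limit (39 at an unadjusted p under 0.05 by edgeR, whatever the fold), which 14.3% of all genes passed. *Clspn* had 55.5, 55.3 and 55.4 CPM in WT and 96.6, 93.2 and 96.8 CPM in Combo (0.79, SE 0.04). *Pcna*, with 405, 400 and 394 CPM in Combo, remained below WT (-0.37, SE 0.02, adjusted p = 9.83e-18, edgeR), as did *Rpa3* (-0.77, SE 0.05).

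In BM the combined effect lay below the sum of both agents for most members. At the 5% FDR 35 were below the sum and 6 above, where 33.1% of all genes were below and 35.6% above, with a median of -0.31 against 0.00 over all genes. *Orc1* lay farthest below, at -1.18 (SE 0.08, adjusted p = 1.84e-16, edgeR). It had 22.5, 22.2 and 21 CPM in Combo, not far from Vehicle. *Clspn* (-0.81, SE 0.05), *Cdc6* (-0.73, SE 0.05) and *Tk1* (-0.65, SE 0.04) also lay below. *Cdc45* (0.38, SE 0.05) and *Rad54l* (0.32, SE 0.08), both lower than Vehicle with the GLP-1 receptor agonist and higher with Combo, lay above.

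**Figure D5:**
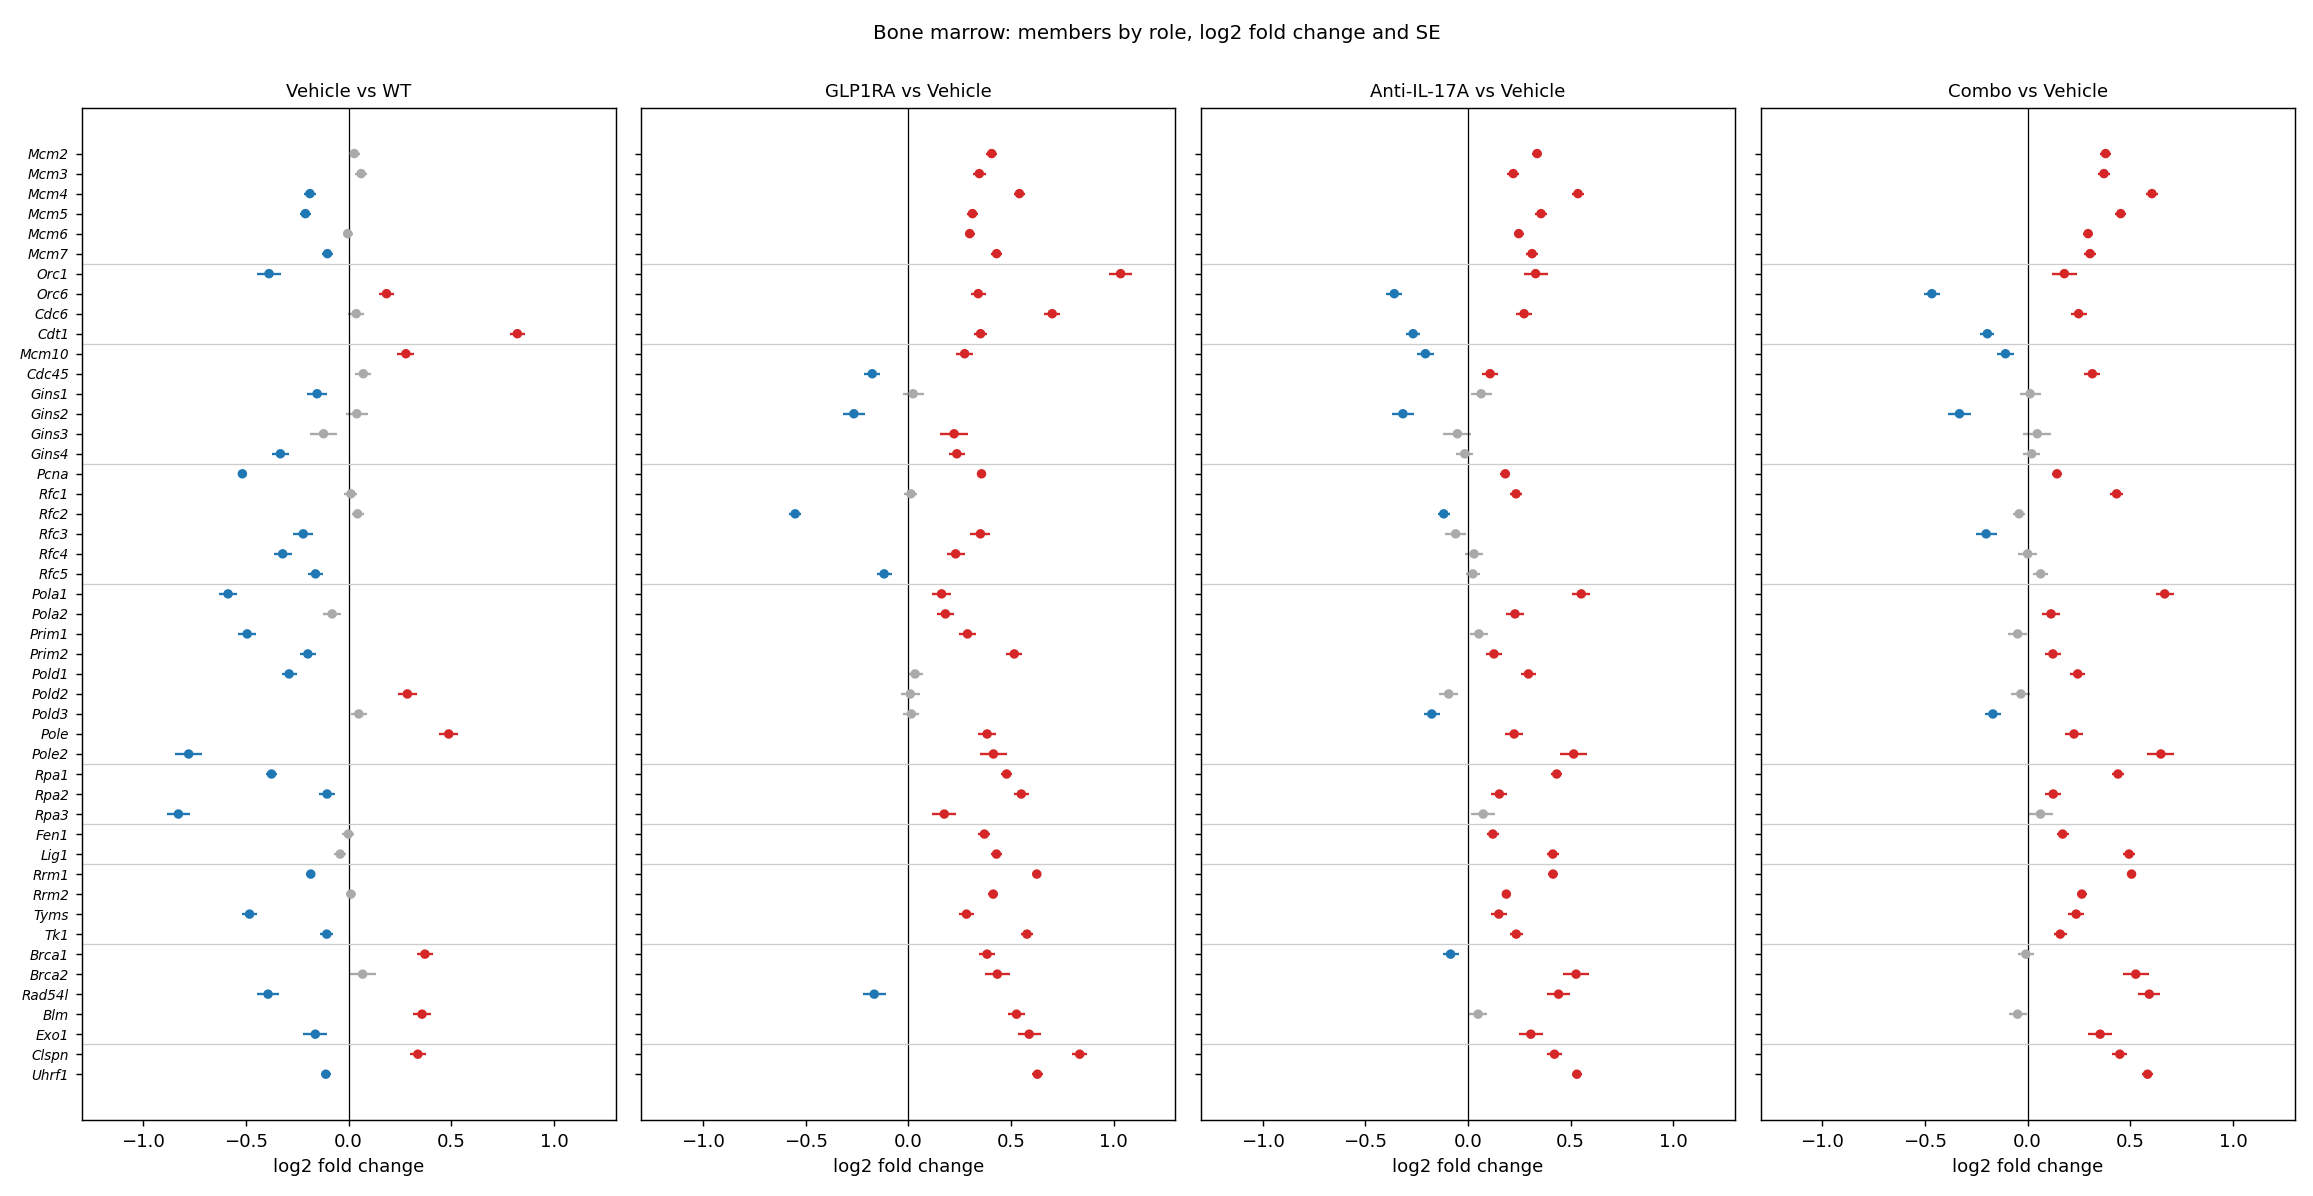
Log2 fold change (x axis, point) and standard error (line) of each of the 47 members in BM, ordered by role with lines between roles, for Vehicle vs WT and for each treated group vs Vehicle. Red marks members higher and blue members lower at the 5% FDR alone, and grey the others: 37 are red in GLP1RA vs Vehicle, and 30 in each of Anti-IL-17A vs Vehicle and Combo vs Vehicle.

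The makeup of BM differed between the groups as well. Erythroid markers (8 of 10) summed to 2041 to 2131 CPM in WT, 1395 to 1411 in Vehicle, 3797 to 3838 in GLP1RA, 2595 to 2678 in Anti-IL-17A and 1818 to 1850 in Combo. That sum, like the median of the members, was lowest in Vehicle and highest in GLP1RA. The same held for the 30 other replication genes, at 1791 to 1823 CPM in Vehicle and 2150 to 2168 in GLP1RA. It did not hold for the other lists named here. Of these, other recombination genes were lowest in Vehicle but highest in WT, and the E2F and RB list was lowest in WT and highest in Combo. Stem and progenitor markers (10 of 10) summed to 146 to 148 CPM in Vehicle, 199 to 204 in GLP1RA and 235 to 245 in Anti-IL-17A, their highest group. Mature neutrophil markers (9 of 10) summed to 79654 to 82550 CPM in Vehicle and 53046 to 53659 in GLP1RA. Macrophage markers (10 of 10) summed to 13207 to 13483 CPM in WT, 4267 to 4307 in Vehicle and 3545 to 3568 in GLP1RA. Immature granulocyte markers (10 of 10) summed to 43505 to 45315 CPM in Vehicle, 31829 to 32084 in GLP1RA and 60223 to 61212 in Combo. Early B cell markers (10 of 10) summed to 564 to 574 CPM in WT and at most 278 in each *Ob/Ob* group. The 20 mitosis genes summed to 3382 to 3452 CPM in Vehicle and 3956 to 4006 in GLP1RA, but were highest in Combo at 4388 to 4416. The part of these cells in the members' values was not tested.

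The difference between the tissues was tested directly, as an interaction in 1 fit of all 30 libraries over the 13076 genes present in both tables. For Combo vs Vehicle, 33 members had a higher log2 fold change in ATMs and 1 (*Pola2*) a lower one. Of all genes, 17.8% were higher and 10.3% lower. The median difference was 1.53 for the members and 0.15 over all genes. Because that model gives both tissues 1 spread, its standard errors were for most members smaller than those of the ATM fit alone. With 1 fit per tissue and the errors of both combined, 31 members had a higher and 1 a lower log2 fold change in ATMs. Of all genes, 16.2% were higher and 10.6% lower. The difference was there judged by a t test on the edgeR estimates of both tissues. In those fits *Rrm2* differed by 3.18 (SE 0.19, adjusted p = 3.5e-10, t test), *Uhrf1* by 3.14 (SE 0.25, adjusted p = 2.62e-08, t test), *Mcm5* by 1.93 (SE 0.11, adjusted p = 8.62e-11, t test) and *Brca1* by 2.19 (SE 0.76, adjusted p = 0.0234, t test). For Vehicle vs WT, 2 members had a higher log2 fold change in ATMs and 10 a lower, that is more negative, one. Of all genes, 11.9% were higher and 16.8% lower. The median difference was -0.21 for the members, against -0.06. Fits per tissue gave the same counts, 2 and 10, where 11.5% and 16.2% of all genes were called. The total share of the members was near that of all genes. In the fits per tissue *Pcna* differed by 1.31 (SE 0.07, adjusted p = 2.45e-12, t test), lower than WT in BM and higher in ATMs. *Pola1* differed by -2.16 (SE 0.35, adjusted p = 6.15e-05, t test).

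Levels of the members relative to each other were read per kilobase of annotated exon. In WT BM *Pcna* had the highest level at 216 CPM per kilobase, followed by *Rrm2* at 144 and *Mcm5* at 75.8, and *Brca2* the lowest at 1.6. In WT ATMs *Pcna* was again highest, at 30.2 CPM per kilobase, and *Clspn* lowest at 0.0687. In Combo ATMs *Pcna* (56.7), *Mcm6* (38.7), *Rrm2* (33.9) and *Mcm5* (30.0) led, and *Brca2* (0.359) and *Clspn* (0.503) were lowest. Thus even after the combination the sum of the 47 was lower in ATMs (2116 to 2160 CPM) than in BM (6333 to 6409 CPM), although *Pold2*, a polymerase δ subunit named after its values were seen, stood at 44.9 ± 3.75 CPM (SD, n = 3) in ATMs and 41.7 ± 2.01 in BM. The 2 tables were scaled separately, so these levels are set across tissues only roughly.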

How the data were processed

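Per the labels and the study's methods, the authors aligned polyA reads with STAR 2.7.2a to mm10 and counted them per GENCODE gene with featureCounts 2.0.1, without strand and with reads that overlap several genes counted for each. They deposited 1 raw count table per tissue, from which low genes had been removed (smallest gene total 55 in BM and 54 in ATMs). From these counts, edgeR 4.0.16 (R 4.3.3) with TMM scaling gave CPM, log2 fold changes, standard errors and Benjamini-Hochberg adjusted p-values over all genes of a tissue. Calls took a 5% FDR and an absolute log2 fold change above 1. In BM, calls by FDR alone were added after the values were seen. The tests were checked on simulated data. DESeq2 1.42.0, other filters, the replicate number as a block and single libraries left out were tried as alternatives. Fits per tissue for the difference between tissues, with a t test on the edgeR estimates, were added after the values were seen.

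The members, lists and tests were chosen with earlier results of these data known. The text names 14 members that stand for the roles and, per comparison, those with the largest changes past the limits. *Lig1*, *Tyms*, *Rfc3* and, in ATMs, *Rrm1* were named after their values were seen. Coordinates of promoters come from RefSeq and exon overlaps from GENCODE.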

Additional observations from a re-analysis of the deposited data

Results flagged for a closer look

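The change of several members differed between ATMs and BM by the interaction test in 1 edgeR fit of both tissues, whose standard errors were for most members smaller than those of ATMs alone, with values given as the log2 fold change in ATMs minus that in BM. For Vehicle vs WT, 12 members differed, where 11.9% of all genes were higher in ATMs and 16.8% lower. The share of the members was thus near that of all genes. Among the 12 were *Pcna* (1.31), *Pola1* (-2.16), *Rrm2* (-1.10) and *Uhrf1* (-1.37). For Combo vs Vehicle, 34 members differed (17.8% of all genes higher in ATMs, 10.3% lower), and 32 with 1 fit per tissue. Those named in the text were *Mcm2* (1.39), *Mcm5* (1.97), *Cdc45* (2.40), *Pola1* (1.73), *Rpa2* (1.66), *Rrm2* (3.23), *Tk1* (2.65), *Brca1* (2.26), *Rad54l* (2.23) and *Uhrf1* (3.17). The effect of one agent differed with the presence of the other for 6 members in ATMs and, by FDR alone, for 41 in BM. Of all genes, 12.9% lay above the sum of both agents and 23% below it in ATMs, so the share of the members there was under that of all genes. In BM, by FDR alone, it was 35.6% above and 33.1% below.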

How the results depend on the processing

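Calls in BM rest on the fold limit. Without it, 32 members passed in Vehicle vs WT, 42 in GLP1RA, 37 in Anti-IL-17A and 36 in Combo vs Vehicle, and 38 in Combo vs WT. Of all genes, 36.1% to 37.9% were higher and 35.8% to 38.8% lower by FDR alone in these BM comparisons. In ATMs 26 members passed without the limit in Vehicle vs WT and 24 in GLP1RA vs Vehicle, where the share of all genes is not given here. With the compared libraries alone, 8 members were called in ATM Vehicle vs WT. With at least 10 counts required in every library, the median was 0.1437 in BM Combo vs WT and 1.622 in ATM Combo vs Vehicle, over fewer members. The fold changes of *Clspn* in ATMs turned without Vehicle replicate 2, to -4.329 in Vehicle vs WT and 3.651 in GLP1RA vs Vehicle (ranges over left-out libraries -4.329 to 1.08 and -1.76 to 3.651), as that library held most of its Vehicle counts. With single libraries left out, the members' median ran in BM from -0.1315 to -0.07783 (Vehicle vs WT), 0.3298 to 0.3636 (GLP1RA vs Vehicle, with 0 to 1 called), 0.1559 to 0.1927 (Combo vs Vehicle) and 0.1434 to 0.1775 (Combo vs WT). In ATMs it ran from -0.4619 to -0.2627 (Vehicle vs WT), 1.105 to 1.258 (Anti-IL-17A vs Vehicle), 1.56 to 1.774 (Combo vs Vehicle) and 1.092 to 1.251 (Combo vs WT). Beyond the construction of each alternative, the cause was not tested.

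The replicate number as a block gave 34 called members in ATM Combo vs Vehicle, 12 in Vehicle vs WT, 12 in GLP1RA vs Vehicle, 28 in Anti-IL-17A vs Vehicle and 24 in Combo vs WT. The correlation of libraries that share a number was at most 0.0523 in BM and 0.0345 in ATMs, under the 0.1 required to treat them as paired. As a hint from the data alone, 10 of 15 BM and 5 of 15 ATM libraries correlated best with one of their own number. Low counts limit *Pole*, *Exo1*, *Brca1*, *Brca2* and *Clspn* in ATMs.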
